A study of Mus musculus with 2 samples.

Results

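The regions described here are 8075 ATAC-seq peaks of basal cells from mouse skin epidermis, out of 84591 nuclear peaks in the deposited table (9.55%). They were chosen by their place in the order of that table, not by a gene or a fold change. Peaks in the table carry running identifiers, and these stand in text order 3 times over, so that the table falls into 3 runs. The 8075 peaks are the nuclear peaks whose first row lies in the second run, rows 13556 to 24717, after exact repeats were dropped. The first run held 9840 nuclear peaks and the third held 66676, and no peak stood in more than 1 run. What the runs stand for is not stated in the sources used here. The order may itself follow the signal in the 2 libraries, so every ratio of ablation to control given for these peaks is a description and supports nothing by itself.

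The study asked how chromatin changes in basal cells when clones expand and the tissue becomes more fluid. One library came from epidermis with the genotype given as basal lineage ablation, and 1 library came from epidermis with the genotype WT, called control. Cells were sorted for each library with the gate α6High/CD34-/Lrig1-/YFP+/GFP+/RFP+ from K14 lineage tracing, so both carry the fluorescent reporters of the tracing. No source used here gives the agent or promoter behind the ablation, the time after it, the age of the mice or how many animals were pooled. Each group is 1 library, so spread between animals is unknown and nothing below was tested for significance. All intervals are 95% exact Clopper-Pearson intervals for counting error only, and PCR copies are not independent molecules.

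ATAC-seq uses a transposase that inserts adapters into DNA not covered by nucleosomes, so a peak marks a promoter, an enhancer or another open site. Basal keratinocytes sit on the basement membrane, express Krt5, Krt14 and the transcription factor Trp63, and divide to maintain the epidermis. When they leave the basal layer they enter the spinous programme, with the keratins Krt1, Krt10 and Krt2, and later the granular programme that builds the cornified envelope. Promoters of active genes are usually open in many cell types, while distal sites vary more between cell types.

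Nuclear peaks held 12463908 reads in ablation and 17056996 reads in control, a median of 62 per peak in ablation and 76 in control. The share of reads in peaks that fell on mitochondrial DNA was 31.2% in ablation and 7.31% in control. The strongest peak assigned to Krt14 had 1479 normalized reads in ablation and 1381 in control, and for Krt5 the values were 443 in ablation and 423 in control. Basal markers were thus open in both libraries. Peaks at markers of other cells were listed too. The strongest had 475 in ablation and 512 in control for the endothelial gene Pecam1, above Krt5, and 198 in ablation and 219 in control for the collagen gene Col1a1. For the melanocyte enzyme Dct it had 132 in ablation and 170 in control, and for the leukocyte phosphatase Ptprc 46.3 in ablation and 49.4 in control. Genes of the proteins that the gate excludes had peaks as well, at most 553 in ablation and 637 in control for Lrig1 and 337 in ablation and 289 in control for Cd34. The part of such cells in the values below was not tested.

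The sequences shown are the 250 bases before annotated starts of genes with a second-run peak across them, since a promoter is where position and gene can be tied most directly. Krt10, Krt2 and Notch3 are the genes from the gene lists used below for which such a window was found. Krt36, a hair and nail keratin, and Trp73, a p53 family transcription factor, were added after their values were seen, for their low ratios. Sequences are from RefSeq on GRCm38.p6, the assembly behind mm10, 5′ to 3′ along the gene. Capitals mark bases inside the peak, and an edge may be off by a single base because the table does not state how it counts starts.
Krt10, chr11:99389365-99389614, minus strand: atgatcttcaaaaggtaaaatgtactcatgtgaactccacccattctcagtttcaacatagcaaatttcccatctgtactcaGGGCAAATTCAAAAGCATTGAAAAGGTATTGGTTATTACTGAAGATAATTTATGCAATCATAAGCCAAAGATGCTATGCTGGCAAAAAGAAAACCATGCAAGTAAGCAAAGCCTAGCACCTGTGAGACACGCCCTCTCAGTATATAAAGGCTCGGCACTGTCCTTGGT
Krt2, chr15:101818170-101818419, minus strand: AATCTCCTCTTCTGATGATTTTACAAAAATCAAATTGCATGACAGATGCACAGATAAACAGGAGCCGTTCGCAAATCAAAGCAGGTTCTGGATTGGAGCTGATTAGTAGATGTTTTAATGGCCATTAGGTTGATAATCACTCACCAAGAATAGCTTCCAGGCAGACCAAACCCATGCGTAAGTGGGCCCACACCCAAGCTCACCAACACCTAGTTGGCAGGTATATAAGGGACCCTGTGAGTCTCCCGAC
Notch3, chr17:32166891-32167140, minus strand: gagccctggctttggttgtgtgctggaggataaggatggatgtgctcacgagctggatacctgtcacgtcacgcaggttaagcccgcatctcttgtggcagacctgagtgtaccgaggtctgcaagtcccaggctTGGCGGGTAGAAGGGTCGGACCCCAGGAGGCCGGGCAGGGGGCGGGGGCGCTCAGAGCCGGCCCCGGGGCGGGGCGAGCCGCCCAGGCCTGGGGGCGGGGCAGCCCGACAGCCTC
Krt36, chr11:100105627-100105876, minus strand: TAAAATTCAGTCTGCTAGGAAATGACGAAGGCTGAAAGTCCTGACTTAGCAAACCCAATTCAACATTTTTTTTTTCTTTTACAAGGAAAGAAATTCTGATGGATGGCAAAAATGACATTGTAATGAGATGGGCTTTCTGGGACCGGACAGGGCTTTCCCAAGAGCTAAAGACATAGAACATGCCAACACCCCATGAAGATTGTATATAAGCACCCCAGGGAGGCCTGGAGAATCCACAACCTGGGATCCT
Trp73, chr4:154097174-154097423, minus strand: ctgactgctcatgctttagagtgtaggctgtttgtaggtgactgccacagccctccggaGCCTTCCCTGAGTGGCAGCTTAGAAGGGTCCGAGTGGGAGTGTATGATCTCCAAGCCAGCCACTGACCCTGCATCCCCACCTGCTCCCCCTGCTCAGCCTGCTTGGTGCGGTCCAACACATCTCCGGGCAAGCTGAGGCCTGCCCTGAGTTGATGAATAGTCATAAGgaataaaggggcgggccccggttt

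In these windows both strands were searched for 5 motifs, spelled TGANTCA for AP-1, TATAAA for a TATA box, CCAAT for a CCAAT box, AACCNGTT for grainyhead factors and CCGGAAGT for ETS factors. The Krt10 window held 1 TATAAA and 1 CCAAT, both inside the peak, and the Krt2 and Krt36 windows held 1 CCAAT each, also inside the peak. No match was found in the Notch3 and Trp73 windows. Over whole 300-base windows, which add 50 bases after the start, a second-run peak overlapped 88 windows of protein-coding genes. TGANTCA stood in 7.95% of these against 6.99% of all 21262 coding windows, and TATAAA in 13.6% against 12.6%. CCAAT stood in 33.0% against 38.2%, and CCGGAAGT in 2.27% against 5.15%. AACCNGTT stood in 2.27% against 1.95%. A match describes letters and shows no bound factor.

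The Krt2 promoter peak had 37.2 normalized reads in ablation and 96.0 in control, a fold of 0.388 (0.266 to 0.553). Krt2 encodes a keratin of upper spinous cells. The Krt10 promoter peak had 46.3 in ablation and 74.1 in control, a fold of 0.624 (0.438 to 0.880), and Krt10 is the main type I keratin of spinous cells. The Notch3 promoter peak, at a Notch receptor gene, had 50.8 in ablation and 50.1 in control, a fold of 1.01 (0.701 to 1.46). Of the 3 promoters, Krt2 stood furthest below control and Notch3 level with it in the values as deposited. The interval of Krt10 overlapped those of Krt2 and of Notch3, while those of Krt2 and Notch3 did not overlap. The Krt36 peak had 10.9 in ablation and 50.8 in control, a fold of 0.214 (0.106 to 0.398). The Trp73 peak had 6.35 in ablation, from 7 reads, and 21.2 in control, from 30 reads.

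In all, 150 of the 7803 second-run peaks on chromosomes with promoter sequences overlapped a promoter window (1.92%), against 3.03% of the first run and 17.4% of the third. Of the 150 peaks, 82 lay at promoters of 83 protein-coding genes. Among the 150, 26 were at least 2-fold lower in ablation (17.3%) and 0 at least 2-fold higher, with a median log2 ratio of -0.42. The share 2-fold lower was 21.8% over the whole run, 2.98% over all nuclear peaks and 0.134% over third-run peaks at promoters. No test was made, as for every count of these peaks. Others at the low end were Pax7, a muscle stem cell transcription factor, with 3.63 in ablation and 14.1 in control, and Pgr, the progesterone receptor, with 5.44 in ablation and 18.4 in control. At the high end, the peak at Sycn, a gene of pancreatic secretory granules, had 19.95 in ablation and 10.59 in control, a fold of 1.89 (0.934 to 3.91). The peak at Aadacl3, an arylacetamide deacetylase-like gene, had 20.9 in ablation and 11.3 in control, a fold of 1.85 (0.935 to 3.74). Both intervals included 1. In between, the peak at Src, a tyrosine kinase, had 61.7 in ablation and 60.7 in control. A single second-run peak covered a miRNA hairpin, that of Mirlet7c-1, with 28.1 in ablation and 39.5 in control.

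Peaks of the second run were short and weak, and most had less signal in ablation. Their median was 12.7 normalized reads in ablation and 17.6 in control, that is 14 and 25 reads. First-run peaks had medians of 19.1 in ablation and 11.3 in control, and third-run peaks 82.5 in ablation and 79.7 in control. Summed over the 8075 peaks, the signal was 133314 in ablation and 187367 in control, a fold of 0.712 (0.707 to 0.716). They held 1.18% of nuclear reads in ablation and 1.56% in control.

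The log2 ratio of ablation to control, with 1 normalized read added to each value, had a median of -0.50 over the second run, with 5th and 95th percentiles of -1.68 and 0.40. Over all nuclear peaks the median was -0.01, over the first run 0.76 and over the third -0.03. Ablation was below control in 6648 second-run peaks (82.3%), above it in 1424 and equal in 3. Over all nuclear peaks ablation was below control in 50.6%, over the first run in 9.81% and over the third in 52.8%. At least 2-fold lower were 1758 (21.8%), against 2.98% of all nuclear peaks, and at least 2-fold higher were 33 (0.409%), against 6.14%. The 1758 peaks made up most of the 2519 nuclear peaks that were at least 2-fold lower. Because place in the table may follow these signals, nothing is read from these shares. With a pseudocount of 5 in place of 1, 838 peaks were 2-fold lower, and among the 4538 peaks at or above the 10th percentile of mean signal, 729. When the libraries were scaled to equal totals with mitochondrial reads included, all nuclear peaks shifted by -0.33 at the median and 3057 second-run peaks were 2-fold lower; the median of the second run was then -0.81 against -0.34 for all nuclear peaks.

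**Figure D1:**
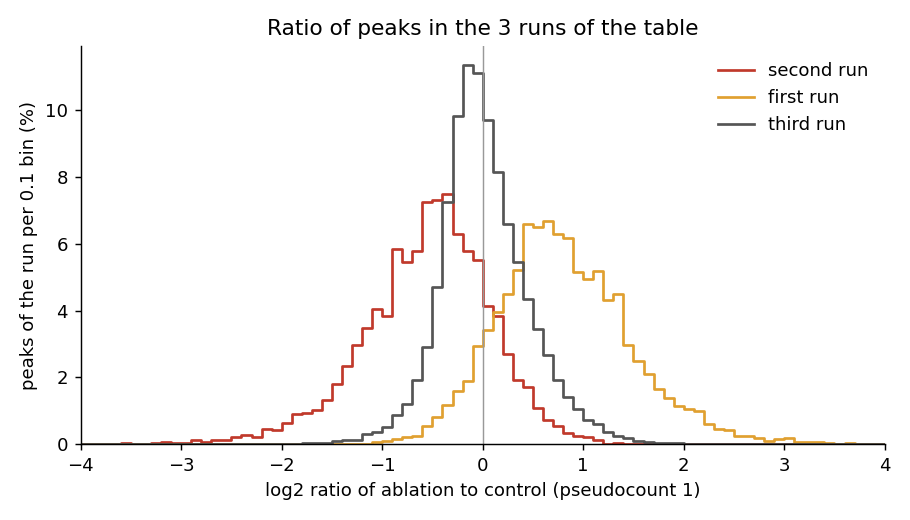
Distribution of the log2 ratio of ablation to control (x axis, 1 normalized read added) as the percentage of each run's nuclear peaks in bins of 0.1 (y axis). The second run has its median at -0.50, the first at 0.76 and the third at -0.03, and the 3 distributions overlap.

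At the edges of the run, the last row of the first run had 10.9 in ablation and 4.94 in control, and the first row of the second run had 13.6 in ablation and 9.88 in control. The last row of the second run had 11.8 in ablation and 21.9 in control, and the first row of the third had 8.16 in ablation and 18.4 in control. These are single rows and are given as a description. No ablation read was found in 40 second-run peaks, whose control counts ran from 0 to 31 reads with a median of 5, and no control read in 6. A count of 0 allows up to 2.72 normalized reads in ablation and 2.12 in control.

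**Figure D2:**
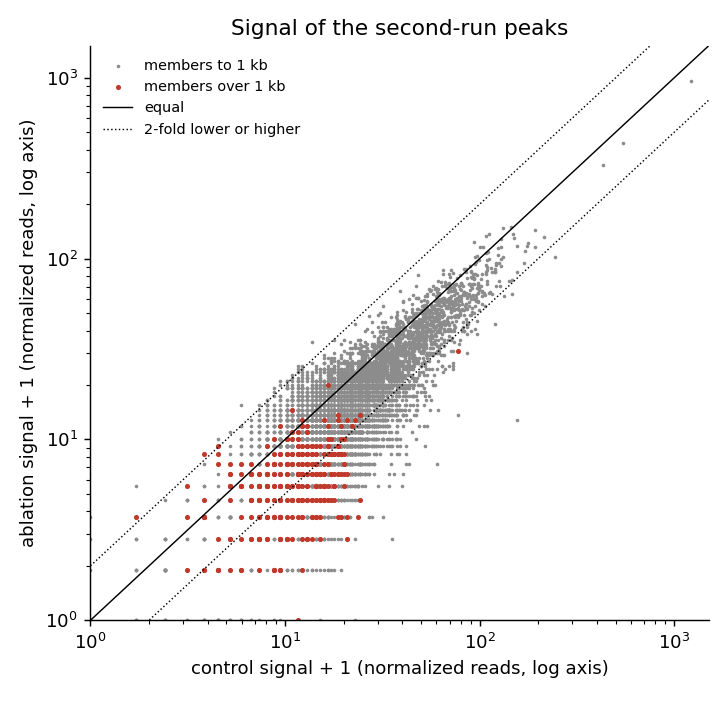
Signal of the 8075 second-run peaks in ablation (y axis) and control (x axis) as normalized reads plus 1 on log axes, with peaks over 1 kb in red. The solid line marks equal signal and the dotted lines 2-fold; 6648 peaks lie below the solid line, and the peaks over 1 kb lie at low signal.

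Signal above the median of all nuclear peaks was reached by 332 second-run peaks (4.11%), and 3537 (43.8%) lay below the 10th percentile. The strongest was a peak of only 125 bp inside Il31ra, a receptor subunit for the itch cytokine interleukin 31. It lay at chr13:112578181-112578306 and had 953 in ablation and 1222 in control, a fold of 0.780 (0.722 to 0.843). Others among the strongest were equally short. A peak of 126 bp near Tra2a, a splicing regulator, had 435 in ablation and 541 in control, and a peak of 125 bp near Cspg5, a neural proteoglycan, had 328 in ablation and 429 in control. Their folds were close to each other, 0.803 (0.715 to 0.901) for Tra2a and 0.765 (0.670 to 0.873) for Cspg5.

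The peak 30815 bp from Bcas1, a gene expressed in myelinating glia, had the lowest fold of the 8 strongest peaks. It lay at chr2:170312825-170313158, with 101 in ablation and 243 in control, a fold of 0.415 (0.332 to 0.515). At Atf3, a stress-induced AP-1 family factor, a peak at the gene's end had 131 in ablation and 212 in control, a fold of 0.615 (0.501 to 0.752). A peak 17238 bp from Fos, an AP-1 subunit, had 121 in ablation and 176 in control, a fold of 0.686 (0.552 to 0.851). Of the remaining strong peaks, the one near the keratin gene Krt42 had 142 in ablation and 191 in control. The one inside Nedd4l, a ubiquitin ligase that acts on sodium channels, had 115 in ablation and 193 in control, a fold of 0.598 (0.4805 to 0.7407). The interval of the Bcas1 peak overlapped those of the Atf3 and Nedd4l peaks. All 8 of the strongest peaks had less signal in ablation than in control, as had 82.3% of the run.

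Among peaks at or above the run's median mean signal (15.0), the highest ratio was inside Pgm5, a protein of muscle adhesion sites, with 33.6 in ablation and 12.7 in control, a fold of 2.64 (1.47 to 4.93). Fmn1, an actin nucleator of adherens junctions, followed with 24.5 in ablation and 10.6 in control. Atf1, a cAMP-responsive transcription factor, had 23.6 in ablation and 10.6 in control. These rest on 37, 27 and 26 reads in ablation and 18, 15 and 15 reads in control. Peaks within 50 kb of Cryaa, Cybrd1, Prpsap1 and Zdhhc25, and a peak with no gene that close (Speer4f2, 62335 bp away, was nearest), completed the 8 highest, with folds from 2.11 to 2.20.

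The lowest ratio was inside Btbd11, at chr10:85582742-85582992, with 1.81 in ablation and 34.6 in control, that is 2 and 49 reads and a fold of 0.0525 (0.00618 to 0.200). A peak 1919 bp from Smad2, a signal transducer of TGF-beta, had 5.44 in ablation and 39.5 in control, a fold of 0.138 (0.0485 to 0.319). Inside Pls3, an actin bundler on the X chromosome, a peak had 4.54 in ablation and 28.9 in control. Peaks inside Plpbp, Cabin1 and Slc35f1, a peak 16682 bp from Hace1 and a peak with no gene within 50 kb (Arsj, 196731 bp away, was nearest) made up the rest of the 8 lowest, with folds from 0.137 to 0.159. In these named peaks the low end reached further from control than the high end did. Over the whole run the log2 ratio went from -4.52 to 1.90, and over the first run from -1.46 to 4.51. Because place in the table may follow the ratio, nothing is read from this difference.

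Second-run peaks were short, as first-run peaks were. The median length was 223 bp, from 124 to 4397 bp, against 653 bp in the third run and 252 bp in the first. Peaks of at most 150 bp numbered 1341 in the second run and 52 in the third. The median log2 ratio was -0.40 for peaks to 150 bp, -0.44 from 150 to 250 bp, -0.55 from 250 to 500 bp, -0.75 from 500 to 1000 bp and -0.93 over 1000 bp. Longer second-run peaks thus lay further below control. In the first run the median was 0.64 in the shortest class and 0.96 in the longest, and in the third run it was 0.07 and -0.07.

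**Figure D3:**
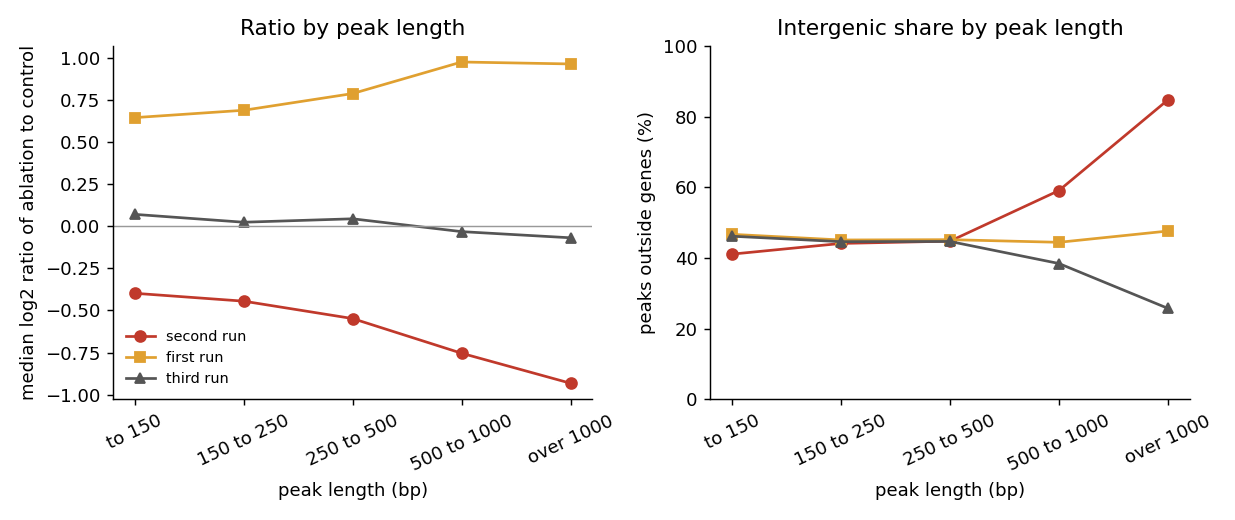
Median log2 ratio of ablation to control (left) and percentage of peaks outside genes (right) by peak length class in bp, for each run. In the second run the median ratio is -0.40 in the shortest class and -0.93 in the longest, and the intergenic share is 41.1% and 84.7%.

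The 334 second-run peaks over 1 kb were broad and nearly empty. Their median signal was 4.54 in ablation and 10.6 in control, or 5 and 15 reads. Per kb this was 3.35 in ablation and 6.92 in control, against 224 in ablation and 230 in control for third-run peaks over 1 kb. Of these broad second-run peaks 84.7% were intergenic and 1 lay at a gene end. The median distance to the nearest protein-coding gene was 89420 bp, and 60.2% lay more than 50 kb from any. At least 2-fold lower in ablation were 152 (45.5%), and 310 of the 334 were below control. Of the 7741 second-run peaks to 1 kb, 20.75% were at least 2-fold lower and 6338 below control. Of the 13342 third-run peaks over 1 kb, 0.757% were at least 2-fold lower and 8111 below control. Over all nuclear peaks 2.98% were at least 2-fold lower and 50.6% below control.

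Their nearest genes included chemoreceptors, which sensory neurons use to detect odours and pheromones and which lie in large arrays. An olfactory or vomeronasal receptor gene was nearest to 21 of the broad peaks (6.29%). For second-run peaks to 1 kb this held for 34 (0.439%), and for third-run peaks over 1 kb for 20 (0.150%). The broadest, of 4397 bp, had no gene within 50 kb, the nearest being the collagen gene Col22a1 at 98206 bp, and had 9.07 in ablation and 16.2 in control. A peak of 3151 bp, 210186 bp from the RNA-binding protein gene Khdrbs2, had 5.44 in ablation and 10.6 in control. A peak of 2711 bp, 43414 bp from the integrin gene Itgb1, had 9.07 in ablation and 19.1 in control. A peak of 2691 bp, 6363 bp from the pheromone receptor gene Vmn1r167, had 11.8 in ablation and 19.8 in control. The intervals of the fold of these 4 peaks all included 1.

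Few second-run peaks lay at gene ends. A gene end here lies no more than 1 kb from where a protein-coding gene starts or stops, because the gene table used gives no strand. There were 473 gene-end peaks (5.86%), 3870 in gene bodies (47.9%) and 3732 outside genes (46.2%). In the third run the shares were 21.1%, 41.0% and 37.9%. Most of this difference went with signal. When third-run peaks were weighted to the second run's spread over the deciles of signal, 6.62% were at gene ends and 48.6% outside genes, and for the first run 7.87% and 44.7%. The median log2 ratio of second-run peaks was -0.33 at gene ends, -0.48 in gene bodies and -0.54 outside genes. At least 2-fold lower were 12.9% at gene ends, 20.3% in gene bodies and 24.5% outside genes.

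On the autosomes, second-run peaks made up from 8.29% to 10.6% of nuclear peaks. On the X chromosome they made up 281 of 1794 peaks (15.7%). Their median log2 ratio there was -0.66, against -0.58 to -0.42 on the single autosomes, and third-run peaks on X had a median of -0.11. Broad peaks were common on X, where 66 of the 281 exceeded 1 kb (23.5%), against 1.22% to 4.71% on the autosomes. Among peaks of at most 1 kb the share on X was still 15.2%, against 9.69% to 12.1% on the autosomes. On the Y chromosome 7 of 24 peaks belonged to the run. The sex of the mice is not given in the sources used here, and its part in these shares was not tested.

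**Figure D4:**
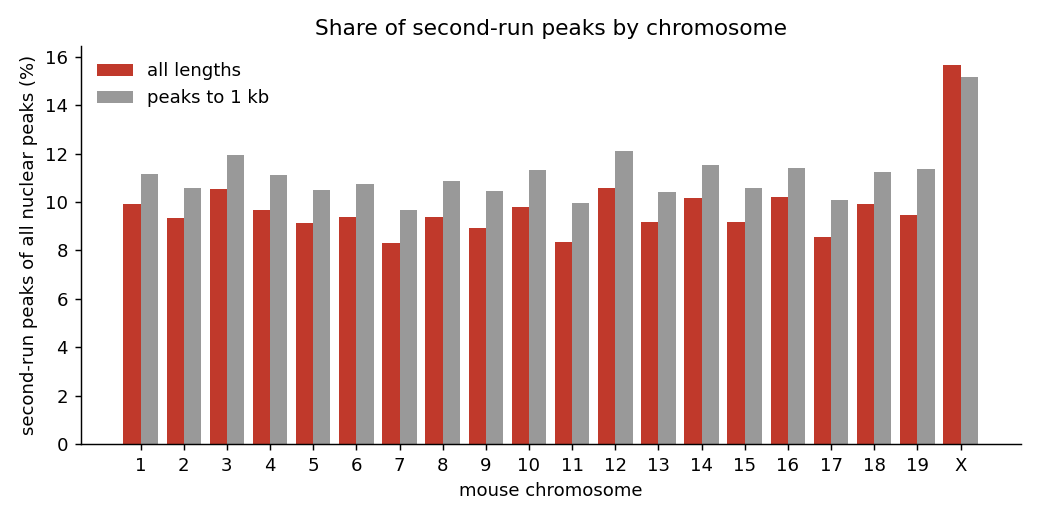
Share of second-run peaks among all nuclear peaks of each chromosome (y axis, percent), for peaks of all lengths and for peaks to 1 kb. X stands at 15.7% and 15.2%, above the autosomes, which lie between 8.29% and 10.6% for all lengths; Y, with 24 peaks, is not drawn.

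Second-run peaks lay closer to third-run peaks, which make up most of the table, than to each other, as first-run peaks did. The nearest other second-run peak was a median of 49705 bp away, and 1346 peaks (16.7%) had one within 10 kb. The nearest third-run peak was a median of 5024 bp away, and 49.9% had one within 5 kb. First-run peaks were a median of 39203 bp from each other and 6023 bp from the third run, with 44.5% within 5 kb of it. Third-run peaks were a median of 4509 bp from each other, with 54.1% within 5 kb. Peaks within 1 kb of a third-run peak numbered 1306, with medians of 19.1 in ablation and 24.7 in control and a median log2 ratio of -0.40. The 545 peaks over 100 kb from any third-run peak had medians of 5.44 in ablation and 10.6 in control and a median log2 ratio of -0.88, and 211 of them exceeded 1 kb. Peaks far from the third run were therefore weaker, longer and further below control.

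Chained by gaps of at most 10 kb, 6729 peaks stood alone, 537 pairs and 67 triplets formed, and 14 clusters had 4 peaks and 3 had 5. Peaks in clusters had a median log2 ratio of -0.50, as had single peaks.

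One of the largest clusters lay at a pair of neighbouring genes of epidermal differentiation, Dmkn and Krtdap, whose products are secreted by keratinocytes. Its 5 peaks, over 20119 bp from chr7:30781692-30801811, summed to 290 in ablation and 372 in control, a fold of 0.780 (0.677 to 0.898). Single peaks had 29.0, 49.0, 83.4, 71.7 and 57.1 in ablation and 43.8, 58.6, 115, 86.8 and 67.8 in control. All 5 were below control, as were 82.3% of the run. The 5 other peaks inside the same stretch summed to 1091 in ablation and 1277 in control, a fold of 0.855. Rerg, a small GTPase of the Ras family, had the lowest fold of the 5 clusters described here, with 63.5 in ablation and 121 in control over 5 peaks, a fold of 0.526 (0.393 to 0.699). The 2 other peaks inside that stretch summed to 152 in ablation and 124 in control.

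Of the other clusters of 4 or 5 peaks, 3 are named. At Drc3, a ciliary protein gene, and Tom1l2, an endosomal protein gene, 5 peaks summed to 188 in ablation and 270 in control, a fold of 0.695 (0.584 to 0.825). At Srebf1, a transcription factor of lipid synthesis, 4 peaks summed to 159 in ablation and 227 in control, a fold of 0.701 (0.580 to 0.845). At Emp1, an epithelial membrane protein gene, 4 peaks summed to 234 in ablation and 251 in control, a fold of 0.934 (0.793 to 1.10). Of the 5 clusters described, Emp1 alone had an interval that included 1.

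Genes were linked to a peak by overlap, and a peak inside no coding gene went to the closest one up to 50 kb away. Second-run peaks reached 4564 genes, 27.3% of the 16698 genes with any peak, and 3179 of these had a single one. No gene lay within 50 kb of 1415 peaks (17.5%), against 13.1% of the other nuclear peaks. The DNA repair gene Rad51b had most, 10 of its 84 peaks, with sums of 94.3 in ablation and 130 in control. Foxn3, a forkhead repressor, had 9 of 47, and its sums were 111 in ablation and 184 in control. Cdh13, an atypical cadherin, had 9 of 38, with 101 in ablation and 169 in control. These genes are long or rich in peaks, so a high count alone says little.

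Of the other genes with 8 or more second-run peaks, Adgrl3, an adhesion receptor, had 9 of 22, all below control, with sums of 91.6 in ablation and 149 in control. Pls3 had 8 of 18, all below control, with sums of 114 in ablation and 210 in control, a fold of 0.545 (0.439 to 0.674). Its 10 other peaks summed to 1282 in ablation and 1476 in control, a fold of 0.868 (0.811 to 0.929). Over the whole run 82.3% of peaks were below control. At Esr1, the estrogen receptor gene, 8 of 23 peaks summed to 150 in ablation and 219 in control. At Lmo7, a junction-associated LIM protein gene, 8 of 28 summed to 116 in ablation and 186 in control. At Macrod2, 8 of 72 summed to 98.0 in ablation and 140 in control. Ranked by the share of a gene's peaks instead, among genes with at least 5 peaks, Il6 led with 4 of 5, then Cd180, a Toll-like receptor homologue, with 5 of 7. Gabrp, Tab3 and Arhgap6 had 4 of 6 each. At Mto1, a mitochondrial tRNA modifier, 3 of 5 peaks summed to 53.5 in ablation and 51.5 in control, a fold of 1.04 (0.724 to 1.48). Of these 3 peaks 2 were below control, and the interval included 1.

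Gene lists of epidermal programmes and of other cell types, 29 lists with 431 genes, showed how the run spread over known biology. Over all nuclear peaks 9.55% belonged to the run. No list was tested. Highest were melanocyte markers with 8 of 33 peaks, then fibroblast markers with 2 of 13. Among lists with at least 100 peaks, spinous differentiation was highest with 23 of 152 (15.1%), followed by adherens junctions and desmosomes with 30 of 223 (13.5%). Basal epidermis had 26 of 272 (9.56%), close to the background. AP-1 subunits had 5 of 110 (4.55%) and hair follicle stem cell genes 7 of 141 (4.97%). Regulators of the epithelial-mesenchymal transition had 1 of 34 (2.94%). The remaining lists lay between 4.80% for MAPK feedback (6 of 125) and 11.1% for muscle markers (1 of 9).

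For spinous differentiation, 21 of the 23 peaks were below control, against 82.3% of the run. Their median log2 ratio was -0.37, while the other peaks of these genes had a median of -0.19. With 1 normalized read added, the peak at the Krt2 promoter was the single one at least 2-fold lower, against 21.8% of the run, and none was 2-fold higher. A peak 49448 bp from Klf4, at chr4:55477432-55477689, missed that criterion narrowly. It had 42.6 in ablation and 86.1 in control, a plain fold of 0.495 (0.346 to 0.699). Klf4, a transcription factor of barrier formation, had 4 of its 12 assigned peaks in the run, from 2324 to 49448 bp outside the gene. They summed to 157 in ablation and 232 in control, a fold of 0.678 (0.561 to 0.818). The 8 other Klf4 peaks summed to 1995 in ablation and 2460 in control, a fold of 0.811 (0.769 to 0.856). Krtdap had 3 of 9 peaks, with sums of 212 in ablation and 270 in control, a fold of 0.787 (0.666 to 0.929), close to the 0.791 (0.745 to 0.840) of its other peaks. At Grhl3, a grainyhead factor, 1 peak had 88.0 in ablation and 114 in control. Outside the run, 7 of 8 Klf4 peaks and 5 of 6 Krtdap peaks lay below control, against 47.3% of all nuclear peaks outside the run. This was not tested.

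**Figure D5:**
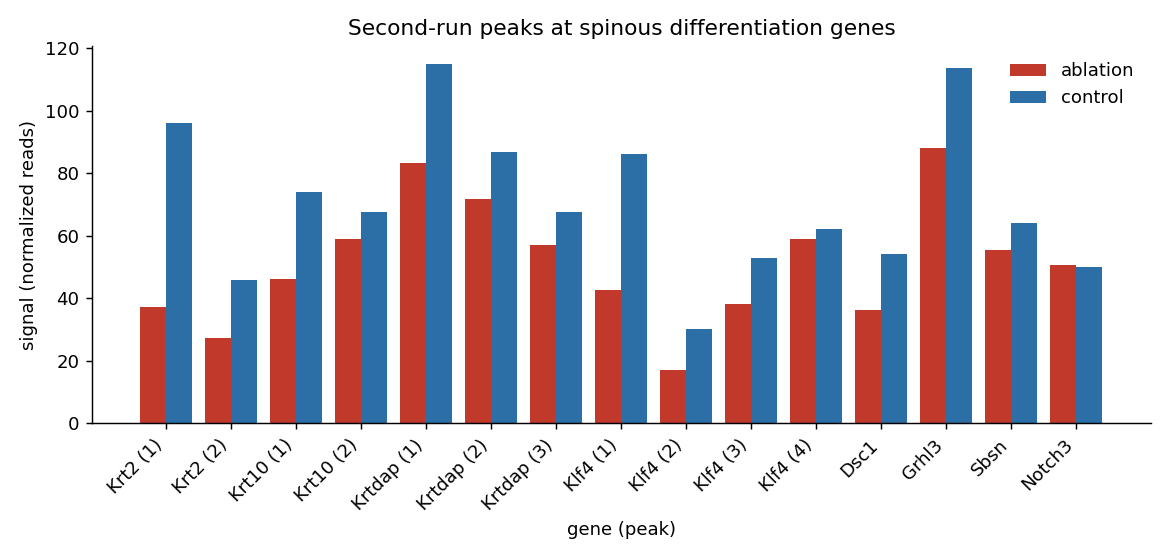
Signal in normalized reads (y axis) of second-run peaks at 8 genes of spinous differentiation, ablation in red to the left of control in blue, with peaks of 1 gene numbered from the lowest ratio. The Krt2 promoter peak has 37.2 in ablation and 96.0 in control, and the Notch3 promoter peak 50.8 in ablation and 50.1 in control; each bar is 1 library, so there are no error bars.

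At genes of cell adhesion 24 of 30 peaks were below control and 6 at least 2-fold lower, near the shares of the whole run (82.3% and 21.8%). At Dsp, which encodes the desmosomal linker desmoplakin, 5 of 19 peaks summed to 83.4 in ablation and 131 in control, a fold of 0.639 (0.492 to 0.825). At Cdh1, which encodes E-cadherin, 4 of 21 summed to 78.0 in ablation and 126 in control, a fold of 0.618 (0.472 to 0.803). The other peaks of both genes had folds of 0.821 for Dsp and 0.840 for Cdh1. For Dsp the interval of the second-run peaks includes the value of the other peaks. Summed over all chromosomes, the fold was 0.712 for the run and 0.943 for all other nuclear peaks. Place in the run may follow the ratio, so nothing is read from the gap at either gene.

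Among basal genes, 21 of 26 peaks were below control and 6 at least 2-fold lower, again near the 82.3% and 21.8% of the run. Dst, a hemidesmosome plakin, had 3 of 31 peaks, with sums of 88.0 in ablation and 155 in control, a fold of 0.569 (0.444 to 0.726). Its other peaks had a fold of 0.888. Itgb1, the β1 integrin, had 3 of 14, with 27.2 in ablation and 50.8 in control, a fold of 0.536 (0.338 to 0.831). Among the 3 was the broad peak 43414 bp from the gene, with 9.07 in ablation and 19.1 in control. The 11 other Itgb1 peaks had a fold of 0.942. Krt14 had no peak in the run.

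In the granular and cornified list all 8 peaks were below control and none 2-fold lower. The shares were 82.3% and 21.8% over the run, and 50.6% and 2.98% over all nuclear peaks. Aloxe3, a lipoxygenase of the skin barrier, had 2 of 5 peaks, with sums of 26.3 in ablation and 38.8 in control. Tgm3, a transglutaminase that crosslinks the cornified envelope, had 2 of 24, with 33.6 in ablation and 40.2 in control.

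Signalling lists lay near or below the background share. The Notch list had 15 of 174 peaks, with 6 at the co-activator gene Maml3, which summed to 101 in ablation and 145 in control. Of the 15 Notch peaks 5 were at least 2-fold lower, against 21.8% of the run and 2.98% of all nuclear peaks. The EGF receptor family had 19 of 206, with 4 at Egfr summing to 79.8 in ablation and 107 in control and 5 at the ligand gene Nrg2 summing to 143 in ablation and 157 in control. The Wnt list had 21 of 224. Its receptor gene Fzd10 had 2 peaks, which summed to 34.5 in ablation and 68.5 in control, a fold of 0.504; their log2 ratios were -1.35 and 0.16. Of the 21 Wnt peaks 14 were below control, against 82.3% of the run. In the TGF-beta list 15 of 241 peaks belonged to the run, 3 of them at the receptor gene Tgfbr2 with 48.1 in ablation and 66.3 in control.

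At AP-1 genes all 5 second-run peaks were below control, against 82.3% of the run and 50.6% of all nuclear peaks. The 2 at Atf3 summed to 224 in ablation and 381 in control, a fold of 0.588 (0.504 to 0.685), and the 2 at Fos to 150 in ablation and 236 in control, a fold of 0.633 (0.522 to 0.765). Atf3's other 15 peaks, all below control as well, had a fold of 0.762. The list of inflammation and NF-kB had 17 of 170 peaks. Il6, an inflammatory cytokine gene, had 4 of its 5 peaks in the run, summing to 26.3 in ablation and 43.1 in control, a fold of 0.611 (0.379 to 0.966). The log2 ratios of these 4 peaks went from -2.18 to 0.72, and 3 were below control. Nfkbiz, a nuclear NF-kB regulator, had 4 of 18, with 77.1 in ablation and 126 in control.

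At extracellular matrix genes 6 of 12 peaks were below control, against 82.3% of the run, 2 were at least 2-fold lower and 0 at least 2-fold higher. The 2-fold shares were 21.8% lower and 0.409% higher over the run, and 2.98% and 6.14% over all nuclear peaks. The sums of the 12 peaks were 298 in ablation and 358 in control, with a median log2 ratio of 0.03. This median became -0.28 under the scaling that includes mitochondrial reads. It became 0.11 when scaled to nuclear totals or centred on strong gene-end peaks. Col12a1, a collagen that associates with fibrils, had 3 of 9 peaks, with sums of 73.5 in ablation and 50.1 in control, a fold of 1.47 (1.05 to 2.05). Its 6 other peaks, all above control, had a fold of 1.17 (1.07 to 1.27). Lama5, a basement membrane laminin chain, had 2 of 11, with 116 in ablation and 151 in control, a fold of 0.769 (0.613 to 0.962).

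At melanocyte markers 7 of 8 peaks were below control and 2 at least 2-fold lower, also near the 82.3% and 21.8% of the run. Mlana, a melanosome protein gene, had 4 of 7 peaks, with sums of 33.6 in ablation and 67.0 in control, a fold of 0.501 (0.333 to 0.739). Its 3 other peaks summed to 55.3 in ablation and 48.0 in control. At Dct, 2 of 7 peaks summed to 5.44 in ablation and 9.17 in control, and the other 5 to 204 in ablation and 253 in control. The summed signal of the list in the run was 61.7 in ablation and 107 in control. Pecam1, an endothelial adhesion gene, had 3 of 18 peaks in the run, with 103 in ablation and 137 in control. Outside the run, the peaks of the melanocyte list had a median log2 ratio of 0.12 and those of the endothelial list 0.15. In both lists 0 of these other peaks were at least 2-fold lower. A change in the number of cells of a type and a change in open DNA per cell cannot be told apart in such bulk libraries.

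Repeats were about as common in the run as elsewhere in the table. Of the 8075 peaks, 4989 were listed once, 3085 were listed 2 times (38.2%) and 1 was listed 3 times, against 37.3% listed 2 times among other nuclear peaks. Peaks listed 2 times lay in gene bodies in 54.9% and outside genes in 38.6% of cases, and those listed once in 43.6% and 51.0%. What a repeat stands for is not stated in the sources used here.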

How the data were processed

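ATAC-seq was measured in 1 ablation and 1 control library. The authors deposited 1 table of normalized signal per peak. Build mm10 and the tools HTSeq, MACS2 2.1.0.20151222, Picard, Bowtie2 2.3.4.2 and Trimmomatic are named per the submitters' processing notes, with no roles or settings in the sources used here. All deposited signal values (100%) were whole multiples of 0.907 in ablation and of 0.706 in control within 0.1 of a read, which gave reads for the intervals. How the authors scaled, selected or ordered peaks is not stated. The ablation column is named Exp and was matched as the only sample that is no control; the control column says 2 where its title says 1.

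The log2 ratio used a pseudocount of 1 on all 84591 nuclear peaks without a filter, with 2-fold as size criterion. RefSeq tables of GRCm38.p6 gave 21896 protein-coding genes, matching 427 of 431 list genes by symbol, and 32851 promoter windows, none on chromosome 18. Peaks and lists were chosen with earlier results of these data known. Named by rule were the 8 highest and 8 lowest ratios at or above the run's median signal (1 per gene), the 8 strongest and 5 widest peaks, the 5 largest clusters, the 8 genes with most peaks, and the 2 genes with most peaks of each list with at least 3, of which part is printed; predicted genes were left out. Other genes, among them the remaining promoters, Grhl3 and Mirlet7c-1, were picked after their values were seen. The steps were tested on simulated data. Alternatives covered pseudocount, filter, scaling, fold size, gene-end width, neighbour gap, gene distance, chromosomes, peak width and read number. Unused columns numbered 0. Python 3.11.15, numpy 2.4.6, pandas 2.3.3, scipy 1.17.1 and matplotlib 3.10.9 were used.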

Additional observations from a re-analysis of the deposited data

Results flagged for a closer look

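Mitochondrial DNA lies outside the measurement of nuclear peaks, and its 3 peaks took 31.24% of reads in peaks in ablation (31.22 to 31.26) and 7.313% in control (7.301 to 7.325). None of these peaks stood in the second run of the table.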

How the results depend on the processing

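All alternatives kept the median log2 ratio of the 8075 peaks below 0. Against 1758 peaks at least 2-fold lower, 33 at least 2-fold higher and a median of -0.4982, a pseudocount of 0.1 gave a median of -0.5351 and a pseudocount of 5 gave 838 lower, 1 higher and -0.3964. Keeping the 4538 peaks at or above the 10th percentile of signal gave 729 lower, 12 higher and -0.4354, and the 1818 at or above the 25th gave 200 lower, 0 higher and -0.3859; fewer peaks enter these counts. Scaling to nuclear totals gave a median of -0.4141, a centre at the median of strong gene-end peaks gave -0.4129, and totals with mitochondrial reads gave 3057 lower, 5 higher and -0.8108. A 1.5-fold criterion gave 3564 lower and 196 higher, and 3-fold gave 485 lower and 2 higher. Of the alternatives chosen after seeing the data, at least 20 reads (7273 peaks) gave 19 higher and a median of -0.4836, and peaks to 1 kb alone gave 1606 lower and -0.4877. The cause of the changes with pseudocount and scaling was not tested beyond their construction.

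The gene-end share of 5.858% became 3.356% at 500 bp, 10.56% at 2 kb and 5.251% by midpoint, where the third run had 18.6%, 25.43% and 19.23%. Of the 1346 peaks with a neighbour within 10 kb, 823 had one within 5 kb, and 2683 peaks had one within 25 kb. Genes reached numbered 3483 at 5 kb and 4767 at 100 kb, within 1.5 times of 4564. Peaks in the second run alone gave the same values, since no peak stood in more than 1 run. For 76 named peaks and 5 alternatives each, 372 of 380 values stayed within the counting interval, 8 left it, all of them strong peaks under totals with mitochondrial reads, and 0 with a 2-fold ratio changed sign.

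No paired analysis was possible because each group has 1 library, so leaving out a replicate was not possible either. With medians of 14 reads in ablation and 25 in control, a single peak's fold is uncertain.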
